A study of Mus musculus with 10 samples.

Results

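Among 1416 WT cells of day 4 embryoid bodies (d4 EB) of the mouse ESC line R1, 344 cells held at least 1 unique molecular identifier (UMI, a tag that marks 1 captured mRNA molecule) of 3 or more of the 6 genes *Tbx4*, *Pitx1*, *Wnt2*, *Gal*, *Gata5* and *Foxf1*. They are called gate cells here, and they made up 24.3% of the WT library (exact 95% Clopper-Pearson interval 22.1 to 26.6). The same criterion held for 2 of 1699 dCD cells, or 0.118% (0.0143 to 0.425), and the share in WT was 206 times that in dCD (56.7 to 1711). These intervals, like all others below, cover counting error only.

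The cells came from a differentiation in which ESC grown in 2i medium were turned into epiblast-like cells (EpiLC) over 2 days with Activin A, bFGF and knockout serum replacement, and were then aggregated for 4 days with BMP4, SCF, LIF and EGF, conditions used to obtain primordial germ cell-like cells (PGCLC). WT was the unmodified R1 line. dCD was a clonal derivative of R1 whose MLL3 and MLL4 (*Kmt2c* and *Kmt2d*) are catalytically deficient, so that the mRNA of neither gene checks the genotype, and *Kmt2c* was at 43.7 CPM (UMIs of a gene per 1000000 UMIs of the group) in the gate cells, 48.6 in the other WT cells and 53.8 in dCD. A wild-type time course of the line E14Tg2a (E14), made with an earlier 10x chemistry, gave 1 library each of 2i ESC, d2 EB and d4 EB for the same measurements. Every condition was 1 library without replicates, so genotype, clone and library cannot be told apart, no test between groups was possible and differences are given as sizes.

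*Tbx4* and *Pitx1* encode transcription factors best known from the hindlimb bud, and *Tbx4* is also needed in the allantois, the extraembryonic mesoderm that grows from the posterior end of the embryo and forms the fetal vessels of the umbilical cord and placenta. *Foxf1* and *Gata5* encode transcription factors of splanchnic and lateral plate mesoderm, *Wnt2* a secreted WNT ligand of the heart field, lung mesoderm and allantois, and *Gal* the precursor of the neuropeptide galanin. BMP4, which was in the medium, is a known inducer of posterior and extraembryonic mesoderm as well as of germ cells.

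The WT library held 20586629 UMIs and the dCD library 22887974, with medians of 13187.5 and 11751 UMIs per cell. Gate cells had a median of 12762.5 UMIs and the other WT cells 13342.5. Mitochondrial transcripts took a median of 5.26% of UMIs in the gate cells and 5.31% in the other WT cells, and ribosomal protein transcripts 20.9% and 21%. Scrublet called 1 gate cell and 9 other WT cells doublets. The R1 libraries shared 0 cell barcodes.

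The 6 genes were not found with equal frequency in the cells they selected. *Pitx1* was detected in 99.7% of the gate cells and *Tbx4* in 96.8%, and 332 of the 344 cells (96.5%) held both. *Foxf1* was detected in 70.9%, *Gata5* in 46.5%, *Wnt2* in 40.7% and *Gal* in 20.9%. The population was therefore in practice made of *Tbx4* and *Pitx1* double-positive cells with at least 1 further gene, while *Wnt2* and *Gal*, which are used to mark it, were found in a minority of its cells.

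In CPM, *Pitx1* stood at 431 in the gate cells and 36.9 in the other WT cells, and *Tbx4* at 346 and 29.3. *Foxf1* stood at 99.8 and 10.6, *Gata5* at 46.7 and 3.64, *Wnt2* at 44.3 and 1.38, and *Gal* at 34.2 and 1.01. These values chose the cells and are a description of the choice. The most frequent combination was *Tbx4*, *Pitx1* and *Foxf1* without the other 3 genes, in 78 cells (22.7%), followed by *Tbx4*, *Pitx1* and *Gata5* in 42 cells and the same 3 genes with *Foxf1* in 42 cells (12.2% each). All 6 genes were found together in 14 cells (4.07%).

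**Figure D1:**
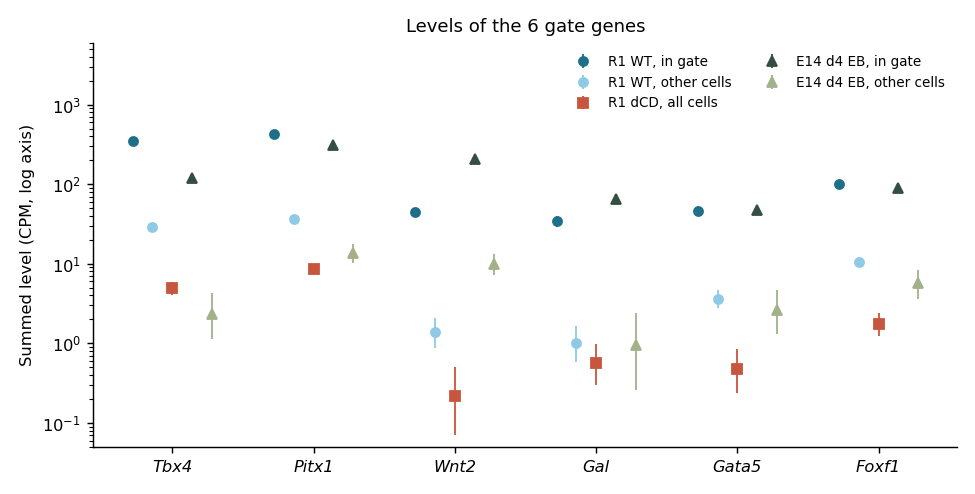
Level of each of the 6 selecting genes in CPM on a log axis, with exact 95% Poisson intervals, in WT gate cells, other WT cells, all dCD cells, and gate and other cells of E14 d4 EB. *Tbx4* and *Pitx1* were the most abundant of the 6 in R1 gate cells, and *Wnt2* was 210.1 CPM in E14 gate cells against 44.3 in R1 gate cells.

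Droplet data hold some free RNA, so the detection of these genes was also counted in cells that should lack them. In 153 WT cells with at least 3 of 6 germ cell markers, whose median depth of 15445 UMIs was above that of the gate cells, *Tbx4* was found in 4.58%, *Pitx1* in 2.61%, *Gata5* and *Foxf1* in 1.96% each, *Wnt2* in 1.31% and *Gal* in 0.654%. Over all WT cells, without selection, the shares were 33.6% for *Tbx4*, 36.4% for *Pitx1*, 14.6% for *Gata5*, 24.8% for *Foxf1*, 11.4% for *Wnt2* and 5.65% for *Gal*, each above that in the germ cell marker group. Of the 153 cells 3 met the criterion themselves.

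The WT cells formed a graded series by the number of these genes detected, with 718 cells at 0, 210 at 1, 144 at 2, 155 at 3, 132 at 4, 43 at 5 and 14 at 6. In dCD, 1574 cells were at 0, 102 at 1, 21 at 2 and 2 at 3. The 144 WT cells just below the threshold had *Tbx4* in 69.4%, *Pitx1* in 79.9% and *Foxf1* in 30.6% of cells, and the 155 cells just inside it had them in 94.2%, 100% and 56.1%. When every cell was thinned to 6831 UMIs and shallower cells were left out, 230 of 1366 WT cells (16.8%) and 2 of 1529 dCD cells (0.131%) met the criterion.

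**Figure D2:**
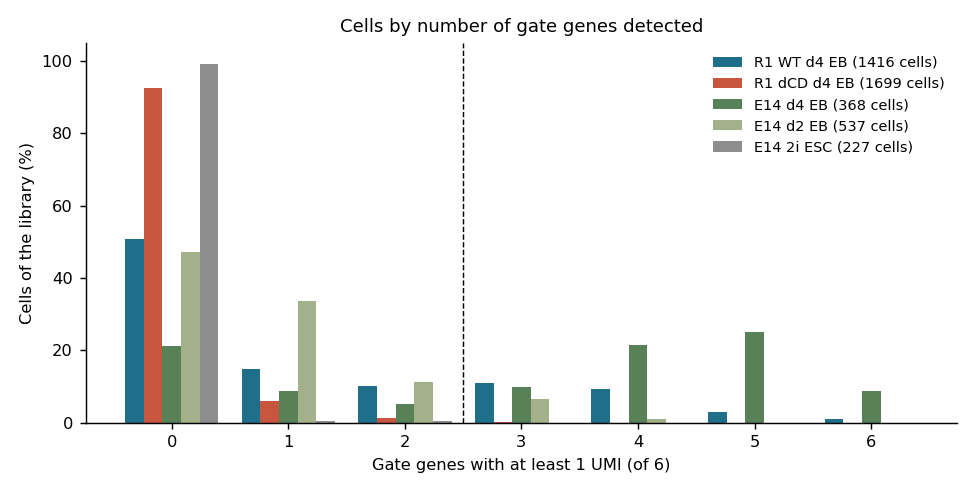
Percentage of cells (y axis) with 0 to 6 of the selecting genes detected (x axis) in each of the 5 libraries, with the threshold at 3 genes. WT and E14 d4 EB extend to 6 genes, dCD ends at 3, with 2 cells, and 2i ESC holds no cell at 3 or more.

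Across whole libraries all 6 genes were lower in dCD than in WT. *Tbx4* was 101 CPM in WT and 4.98 in dCD, a ratio of 20.3 (16.8 to 24.7), *Pitx1* 126 and 8.56, and *Foxf1* 30.8 and 1.75. *Wnt2* was 11.1 and 0.218 CPM, a ratio of 50.9 (21.5 to 158), *Gata5* 13.4 and 0.481, and *Gal* 8.55 and 0.568. In summed counts, fewer cells of a kind and less RNA per cell cannot be told apart. A single dCD cell held 65 of the 196 *Pitx1* UMIs of the dCD library.

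The genes lie on 6 chromosomes (GRCm38, GENCODE vM21), *Tbx4* at chr11:85886422-85916097, *Pitx1* at chr13:55825051-55836192, *Wnt2* at chr6:17988940-18030585, *Gal* at chr19:3409915-3414544, *Gata5* at chr2:180325133-180334699 and *Foxf1* at chr8:121084386-121088144. Of 47 genes within 250 kb of their starts, 19 had enough UMIs to compare gate cells with the other WT cells, 3 were at least 2-fold higher and 1 was at least 2-fold lower, where 2.89% and 7.75% of all genes compared were. The 3 higher neighbors were *Tbx2*, 53.9 kb from *Tbx4*, *Cables2* near *Gata5*, and *Fendrr*, a long noncoding RNA needed for lateral mesoderm, which starts 1.28 kb from *Foxf1* on the opposite strand (chr8:121054882-121083110). *Fendrr* was 15.2 CPM in the gate cells and 2.01 in the other WT cells, a ratio of 7.56 (4.91 to 11.9).

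Stretches of 3 promoters are shown because the genes are 2 of the selecting genes and the *Foxf1* neighbor that moved with them, and because they hold the letters of a GATA, an E-box and a forkhead motif. The sequences are from RefSeq (GRCm38.p6), 5′ to 3′ on the strand of the gene, with the match in capitals. *Pitx1* and *Foxf1* were not in the promoter table.
*Wnt2* (chr6:18030446-18030525, minus strand, GATA motif GATAA on the opposite strand, 2 matches at 4 and 35 bases before the RefSeq start, within the longer GENCODE gene): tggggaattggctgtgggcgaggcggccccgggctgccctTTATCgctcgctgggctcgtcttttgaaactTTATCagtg
*Tbx4* (chr11:85896614-85896699, plus strand, E-box CAGATG on the opposite strand, 105 bases before the RefSeq start, within the longer GENCODE gene): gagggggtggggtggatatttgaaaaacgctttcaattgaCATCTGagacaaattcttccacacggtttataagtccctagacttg
*Fendrr* (chr8:121083193-121083279, minus strand, forkhead motif GTAAACA, 122 bases before the start): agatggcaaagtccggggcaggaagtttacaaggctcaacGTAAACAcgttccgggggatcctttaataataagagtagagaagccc

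Such matches were common. Searched on both strands of the 250 bases before the start, GATAA was in 22.6% of all 32851 promoters, in 14% of those of the genes compared and in 17.9% of the 290 promoters of genes at least 2-fold higher in the gate cells. CAGATG was in 14.4%, 9.23% and 14.1%, and GTAAACA in 3.17%, 2.05% and 1.72%. The T-box letters AGGTGT were in 11.8%, 8.86% and 11.7%, and the PITX letters TAATCC in 6.25%, 4.99% and 4.83%. A match describes letters and says nothing of binding.

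Gate cells were then compared with the other 1072 WT cells over 10136 genes with at least 100 UMIs in both groups together, without the 6 selecting genes. At least 2-fold higher in the gate cells were 293 genes (2.89% of those compared) and at least 2-fold lower 786 (7.75%), around a median log2 ratio of -0.01. The minimum was on both groups together, and the gate cells held 4671624 UMIs against 15915005 in the others. A gene found only in the other WT cells could thus pass it at a lower CPM than one found only in the gate cells. The 2 shares therefore depend on group size and are not a balance of higher and lower genes. The largest ratio was that of *Sfrp1*, a secreted WNT inhibitor, at 174 CPM in the gate cells and 16.9 in the other WT cells, or 10.3-fold (8.94 to 11.8). *Actc1*, the cardiac muscle actin, followed at 21.2 and 2.07 CPM, and *Phlda2*, an imprinted growth regulator of the placenta, at 826 and 93.8 CPM, or 8.81-fold (8.29 to 9.35). *Asb4*, *Ephb1*, *Fendrr*, 1010001N08Rik, *Hoxc11*, *Cxcl14*, *Stbd1*, *Rgs10*, *Col1a2*, *Morc4*, *Ptprd* and *Sh3bgr* completed the 15 largest.

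The 15 smallest ratios were led by genes of blood and epithelia. *Hba-x*, an embryonic globin, was 0.214 CPM (1 UMI) in the gate cells and 31.6 in the other WT cells, *Spink1* 0.856 and 105, and the tight junction gene *Cldn6* 0.214 and 21.9. *Hba-x* was detected in 0.291% of the gate cells and 0.466% of the other WT cells, so its ratio rests on few cells. *Spink1* was detected in 0.872% and 5.5% of them, *Ttr* in 0.291% and 1.4%, and *Cldn6* in 0.291% and 11.1%. *Dppa3*, a germ cell and pluripotency gene, had 0 UMIs in the gate cells and 26.4 CPM in the others, a ratio of at most 0.0243 with 3 counts in place of 0. *Cldn4*, *Cxcl16*, *Ephx2*, *Esrp1*, *Flt1*, *Ttr*, *Grhl2*, *Mpzl2*, *Dnah8* and *Wfdc2* were among the others.

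Counts of gene lists against the other WT cells, here and below, stand beside 2.89% higher and 7.75% lower over all genes compared. Of 23 genes compared on the list for allantois and extraembryonic mesoderm, 12 were at least 2-fold higher in the gate cells and 0 lower, with a median log2 ratio of 1.24. The posterior *Hox* genes *Hoxa10*, *Hoxa11*, *Hoxa13* and *Hoxd13* are on this list and were among the higher ones. *Twist1*, a transcription factor of mesenchyme, was 593 CPM in the gate cells and 115 in the other WT cells, or 5.16-fold (4.86 to 5.48), and was found in 97.1% of gate cells. *Tbx20* was 158 and 37.1 CPM, 4.26-fold (3.81 to 4.75), and *Tbx2* 113 and 31 CPM, 3.64-fold (3.21 to 4.12). *Plac1* and *Spin2c*, which are also expressed in the placenta and extraembryonic tissue, were 4.19-fold and 4.71-fold higher.

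*Hand1*, the usual marker of extraembryonic mesoderm, did not follow this order. It was detected in 97.1% of the gate cells and 72.2% of the other WT cells, but its level was 535 CPM in the gate cells and 652 in the others, a ratio of 0.819 (0.784 to 0.856). *Hand2* was 205 and 71.4 CPM, 2.87-fold higher (2.63 to 3.13). *Bmp4*, which the allantois secretes, was 35.7 and 67.1 CPM, a ratio of 0.533 (0.45 to 0.628).

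On the list of splanchnic and lateral plate mesoderm 5 of 14 genes were at least 2-fold higher and 1 lower, and of 6 GATA family genes and cofactors 4 were higher and 0 lower. *Gata6* was 213 and 52 CPM, 4.1-fold (3.74 to 4.5), and *Gata4* 52.9 and 13.7 CPM, 3.86-fold (3.2 to 4.65). *Zfpm2*, a cofactor of GATA4, was 13.3 and 3.96 CPM, and *Smarcd3*, a chromatin remodelling subunit of the heart fields, 45.2 and 9.8. Among 5 cardiac muscle genes *Actc1* alone was higher and 1 was lower.

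The hindlimb list, which holds posterior *Hox* genes, had 9 of 16 genes at least 2-fold higher and 0 lower, with a median log2 ratio of 1.22. *Prrx1*, a factor of limb mesenchyme, was 91.2 and 29.7 CPM, 3.07-fold (2.69 to 3.51).

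The *Hox* genes differed by paralog group, which in the embryo follows the position along the body axis. Summed over the 12 genes of groups 1 to 4, the level was 89 CPM in the gate cells and 91.5 in the other WT cells, a ratio of 0.973 (0.871 to 1.09), with 0 of 3 genes compared at least 2-fold higher. Groups 5 to 9 summed to 465 and 166 CPM, 2.8-fold (2.64 to 2.96), with 10 of 12 genes higher. Groups 10 to 13 summed to 441 and 115 CPM, 3.83-fold (3.59 to 4.08), with 8 of 8 genes higher. Ratios in groups 10 to 13 ran from 2.78 for *Hoxa13* and 2.82 for *Hoxc10* to 6.55 for *Hoxc11*, at 32.5 and 4.96 CPM, and *Hoxb7* (5.16) and *Hoxa9* (4.48) of groups 5 to 9 lay in the same range. The 3 genes compared of groups 1 to 4 were all of the *Hoxb* cluster, and *Hoxb2*, at 29.8 and 55.9 CPM, made up most of that sum in the other WT cells. Below the minimum of UMIs, *Hoxc4* (5.63, 3.38 to 9.55) and *Hoxd4* (3.33, 2.15 to 5.16) of these groups went the other way. So did *Hoxa2*, *Hoxa3*, *Hoxd1* and *Hoxd3*, with ratios of 2.79 to 5.96 on few UMIs. Outside the *Hoxb* cluster, all genes of these groups with a ratio lay above 1. The near equal sum of groups 1 to 4 thus rests on *Hoxb* genes.

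**Figure D3:**
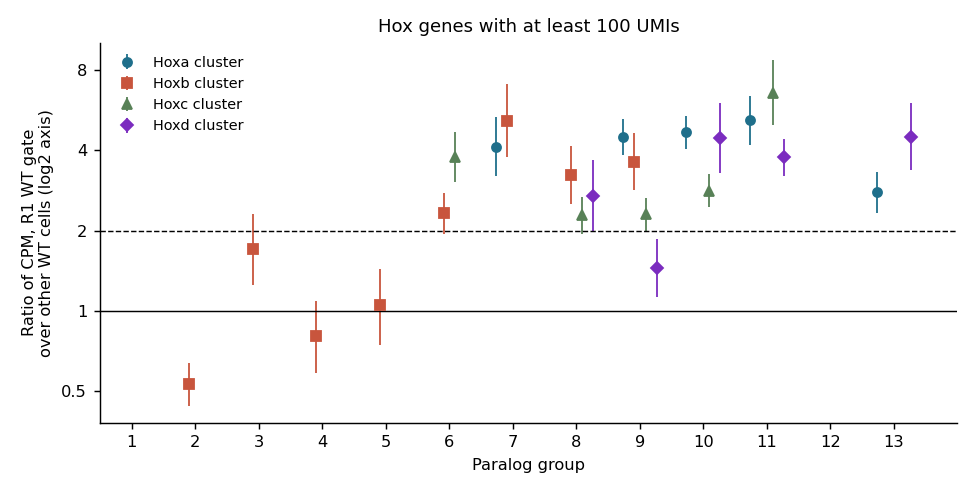
Ratio of the CPM in WT gate cells to that in the other WT cells on a log axis for each *Hox* gene with at least 100 UMIs in both groups together, by paralog group, with exact 95% intervals. The 3 genes of groups 1 to 4, all of the *Hoxb* cluster, lie below 2-fold, and all 8 genes of groups 10 to 13 lie above it.

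Of 14 mesenchymal genes of the epithelial to mesenchymal transition 6 were at least 2-fold higher and 0 lower, and of 14 epithelial genes 0 were higher and 9 lower, with median log2 ratios of 0.89 and -4.06. The cadherin *Cdh2* was 261 and 113 CPM, 2.32-fold (2.15 to 2.49), and *Cdh1* was 1.71 (8 UMIs) and 29.5 CPM. *Epcam*, an epithelial adhesion protein, was 5.78 and 118 CPM, and *Snai1*, a repressor of *Cdh1*, 98.3 and 32.4.

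Simple keratins were still detected in most gate cells. *Krt8* was found in 90.7% of them at 511 CPM, against 841 in the other WT cells, and *Krt18* in 61.3% at 126 CPM, against 503. *Vcan*, a matrix proteoglycan, was 704 and 173 CPM, 4.08-fold (3.88 to 4.29), and *Has2*, which makes hyaluronan, 87.5 and 33.9. Of 15 collagen genes 1 was at least 2-fold higher and 4 were lower, where 2.89% and 7.75% of all genes compared were. The higher one was *Col1a2* at 65.9 and 11.6 CPM.

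Of 14 smooth muscle genes 3 were at least 2-fold higher and 0 lower. *Acta2*, smooth muscle actin, was 580.3 and 171 CPM, 3.4-fold (3.23 to 3.59), *Myl9* 97.8 and 22.7, and *Cnn1* 34 and 9.49. *Tagln*, a further early smooth muscle gene, was 640.2 and 439 CPM, 1.46-fold (1.4 to 1.52).

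Pluripotency genes were lower for 16 of 16, with a median log2 ratio of -3.02, and germ cell genes for 9 of 9, with a median of -2.07. *Pou5f1*, a core pluripotency factor kept in germ cells, was 20.8 and 241 CPM, and *Nanog* 6.21 and 49.9. Endoderm genes were lower for 8 of 9, amnion and surface ectoderm genes for 7 of 10 and extraembryonic ectoderm genes for 4 of 8, with 0 higher in each.

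All 4 blood genes compared were at least 2-fold lower, *Hbb-y* with 0 UMIs in the gate cells and 16.1 CPM in the others, and *Runx1*, a regulator of blood formation, at 36.4 and 73.8 CPM. Of 6 endothelial genes 0 were higher and 2 lower. *Pecam1* was 3.42 and 28.7 CPM, whereas *Kdr*, which marks the mesoderm progenitors of vessels as well as endothelium, was 22.5 and 20.6 CPM, a ratio of 1.09 (0.867 to 1.36). *T*, the primitive streak gene Brachyury, had 0 UMIs in the gate cells and 5.78 CPM in the others. Of the 5 streak genes compared *Snai1* was at least 2-fold higher and 3 were lower, and of the paraxial and intermediate mesoderm genes both compared were lower. Set beside the label of mesoderm, the lists of allantois and hindlimb had the most members at least 2-fold higher. Both hold posterior *Hox* genes, so their counts are not separate, and by share the GATA list was above both. The lists of cardiac and smooth muscle had few higher members, though a larger share than over all genes, and those of endothelium and blood none.

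Of the signalling lists, to be read beside the 2.89% higher and 7.75% lower over all genes, BMP had 2 of 26 genes at least 2-fold higher and 3 lower, WNT 6 of 34 higher and 5 lower, Hedgehog 2 of 8 higher and 1 lower, and FGF 1 of 15 higher and 8 lower. Among the ligands, *Bmp2* was 18.8 and 50.5 CPM, *Wnt4* 7.71 and 86.3, *Wnt5b* 13.7 and 3.52, and *Fgf8* 0 (0 UMIs) and 10.2 CPM. *Rspo3*, which enhances WNT signalling, was 158 and 49.6 CPM, 3.18-fold (2.87 to 3.52). The higher and lower WNT genes were near balance, and the lower FGF genes were the ligands *Fgf4* and *Fgf8* together with targets and feedback inhibitors of the pathway such as *Etv5*, *Spry2*, *Spry4* and *Dusp6*.

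Among the receptors, *Acvr2a*, a receptor for BMPs and activins, was 19.3 and 8.73 CPM, *Fzd1* 33 and 12.2, *Ror1* 27.4 and 6.66, *Fgfr2* 42.8 and 17.8, and *Pdgfra*, the PDGF receptor of mesenchyme, 63.6 and 19.4 CPM, 3.27-fold (2.78 to 3.85). All 5 were at least 2-fold higher. *Smad9*, which carries the BMP signal, was 15 and 5.03 CPM, *Nog*, which blocks BMPs, 1.93 and 10.5, and *Gas1*, a Hedgehog coreceptor, 115 and 32.1. Of 24 S phase genes 0 were higher and 1 lower, and of 23 mitosis genes 0 were past 2-fold in either direction. At the 2.89% higher and 7.75% lower over all genes, lists of this size would also hold few such genes.

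The number of selecting genes detected also ordered the cells by other genes. Over 1416 WT cells and 10136 genes, the rank correlation with that number was highest for *Twist1* (Spearman's rho 0.69), *Vcan* (0.67), *Spin2c* (0.67), *Gata6* (0.64) and *Capn6* (0.63). These correlations are across cells of 1 library, share the depth of each cell and are a description.

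**Figure D4:**
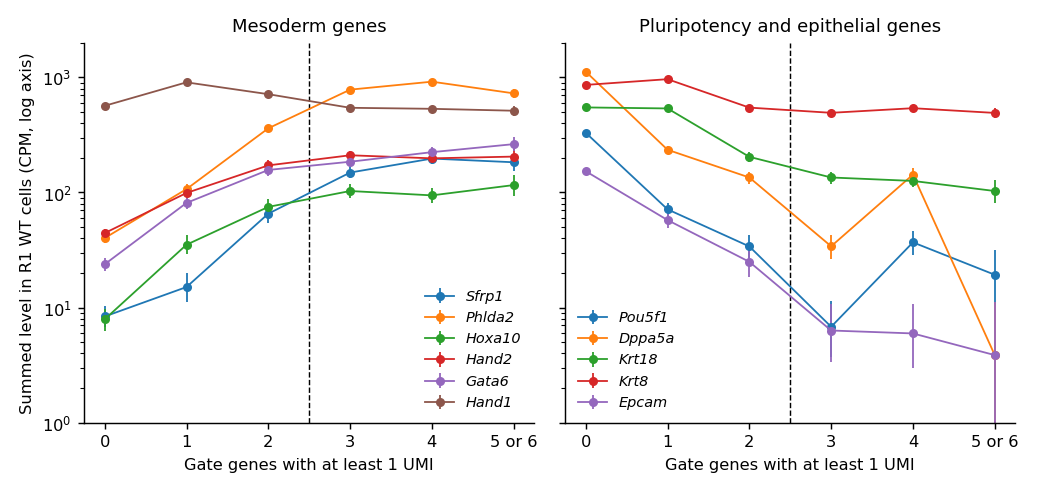
Level in CPM on a log axis (y) by the number of selecting genes detected in WT cells (x), for 6 genes that were high in the gate cells or expressed throughout mesoderm (left) and 5 pluripotency and epithelial genes (right). *Sfrp1*, *Phlda2*, *Hoxa10*, *Hand2* and *Gata6* are higher at 3 genes and above than at 0, and *Pou5f1* and *Dppa5a* are lower there, with a local peak at 4 genes.

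The peak at 4 genes came from few cells. Of the gate cells, 4 held at least 10 UMIs of *Zfp42*, a naive pluripotency gene, and together they had 75 of the 83 *Zfp42* UMIs, 292 of the 337 *Dppa5a* UMIs and 52 of the 97 *Pou5f1* UMIs of the gate cells. Their depth was 25580 to 37004 UMIs, 1 was called a doublet, and 3 lay outside the clusters that held the other gate cells. Without them, a choice made after these values were seen, 306 genes were at least 2-fold higher and 811 lower.

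Cells chosen on 6 genes were also close to each other in the rest of the transcriptome. In a neighbor search over the WT cells without the 6 genes, 78.8% of the 20 nearest neighbors of a gate cell were gate cells, against 9.45% for the other WT cells. In a search over both R1 libraries, dCD cells made up 0.378% of the neighbors of WT gate cells and 4.58% of those of the other WT cells, while 54.5% of all R1 cells were dCD.

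Of the 344 gate cells, 302 (87.8%) fell into a cluster of 382 WT and 0 dCD cells led by *Gal*, *Actc1*, *Tbx4*, *Wnt2* and *Pitx1*. It was made without the 6 genes and 79.1% of its cells met the criterion. A further 39 gate cells (11.3%) fell into a larger cluster of 544 WT and 119 dCD cells led by *Cdh5*, *Col6a3*, *Prr9*, *Tdo2* and *Ctla2a*, and 3 lay elsewhere. The first cluster held cells of 1 library alone, so that this kind of cell and the library cannot be told apart.

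Within the first cluster, cells that met the criterion and cells that did not were nearly alike. The clustering used the other variable genes and so grouped cells that were alike in them, and the counts are a description. Only 13 of 6264 genes (0.208%) were at least 2-fold higher in the gate cells there and 8 (0.128%) at least 2-fold lower. *Dab2*, an endocytic adaptor, was 27 and 6.66 CPM, *Cxcl14* 61.3 and 27.6, *Fgfr2* 46.5 and 22.8, and *Nrp2*, a coreceptor for VEGF and semaphorins, 58.8 and 127 CPM. The remaining cells of this cluster thus had less of the selecting genes but otherwise differed from the gate cells in few of the genes compared.

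The 39 gate cells of the larger cluster, which the clustering had set apart on these other genes, differed more. Against the 302 of the first cluster, 63 of 5972 genes (1.05%) were at least 2-fold higher and 149 (2.49%) lower. *Tgfbi* was 364 CPM in the 39 cells and 78 in the 302, *Clu* 115 and 21.3, and *Col3a1* 72.1 and 18.8. *Sfrp1* was 58.4 and 193 CPM, *Morc4* 96.2 and 303, and *Alcam*, a cell adhesion protein, 3.44 and 31.8.

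The larger cluster held both 39 WT gate cells and the 2 dCD cells that met the criterion. At least 1 of the 6 genes was found in 48.3% of its WT cells and in 42.9% of its dCD cells, 2 or more in 114 of 544 WT and 13 of 119 dCD cells, and 3 or more in 39 and 2. In the cluster with the other 3 gate cells, at least 1 gene was found in 12.9% of 116 WT and 1.52% of 462 dCD cells. In the larger cluster, *Tbx4* stood at 34.6 CPM (30.4 to 39.2) over the WT cells and at 51.5 (40.6 to 64.4) over the dCD cells. *Foxf1* stood at 26.1 and 6.69 (3.21 to 12.3) in these cells, and *Gal* had 0 UMIs in the dCD cells of that cluster. These genes chose the cells, and 302 of the 344 gate cells, with most of the *Tbx4* UMIs, were in the cluster without dCD cells, so that the WT level left here is low by that split and the values are a description.

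The dCD cells of the larger cluster had 386 CPM of *Hand1*, 137 of *Hand2*, 326 of *Twist1*, 122 of *Gata6*, 63.5 of *Hoxa10* and 123 of *Tbx20*. The 39 WT gate cells of the cluster had 708, 199, 301, 156, 51.5 and 101 CPM of these genes in the same order. *Phlda2* was 491 CPM in those WT cells, 91.3 in the other 505 WT cells of the cluster and 49.5 in the dCD cells, *Acta2* 575, 319 and 62.9, and *Sfrp1* 58.4, 6 and 16.7. *Twist1*, *Hoxa10* and *Tbx20* thus had the higher values in dCD and *Hand1*, *Hand2* and *Gata6* in WT, all 6 within 2-fold of the WT gate cells. Against the other WT cells of the cluster, *Phlda2* was lower in dCD by less than 2-fold, *Sfrp1* was higher and *Acta2* alone of these 3 was lower by more than that.

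The 2 dCD cells that met the criterion were both in that cluster, with 10110 and 16826 UMIs. The first held 1 UMI of *Tbx4*, 2 of *Pitx1* and 1 of *Foxf1*, and the second 4 of *Tbx4*, 1 of *Pitx1* and 1 of *Gata5*. They differed from each other in that the first had 7 *Hand1* and 15 *Krt8* UMIs and the second 0 and 1.

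Set against these 2 cells, the WT gate cells were at least 2-fold higher for 333 of 6065 genes (5.49%) and lower for 856 (14.1%), or 885 and 366 when the ratios were centred on their median log2 ratio of -0.51. With 26936 dCD UMIs in all, the split thus turned with the centring, and single genes rest on few counts. Genes with 0 UMIs in dCD entered the median at the counts given in place of 0, which were 111 CPM at this depth. How far these stand-in values set the median, and with it the turn of the split, was not tested. *Phlda2* was 826 CPM in WT and 0 UMIs in dCD (at least 7.42-fold higher), *Tagln* 640.2 and 37.1, *Igf2* 915 and 111, *Wnt5a* 50.1 and 483, and the growth factor gene *Ptn* 25 and 594.

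Against all 119 dCD cells of the larger cluster, together with the 0 of the first, a comparison added after the data were seen, 218 of 7030 genes (3.1%) were at least 2-fold higher in the WT gate cells and 234 (3.33%) lower. Most of these WT cells were in the first cluster and all of the dCD cells in the larger one, so that cluster and genotype cannot be told apart in these values. *Cdkn1c*, an imprinted inhibitor of the cell cycle, was 737 and 35.4 CPM, or 20.8-fold, *Phlda2* 826 and 49.5, or 16.7-fold, and *Actc1* 21.2 and 0.669. *Spp1*, a secreted phosphoprotein, was 8.56 and 624 CPM, *Ctla2a*, a leading gene of the larger cluster, 3.21 and 423, with 137 in the other WT cells of that cluster, and *S100a4* 0.214 and 69.6. Of 21 imprinted genes 12 were higher and 0 lower. The list of glycolysis had 0 of 16 higher and 8 lower, and that of FGF 7 of 9 lower.

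Against the other WT cells, 6 of 21 imprinted genes were at least 2-fold higher and 0 lower, with a median log2 ratio of 0.64. *Cdkn1c* was 737 and 218 CPM, 3.38-fold (3.22 to 3.54), *Plagl1* 202 and 68.9, *Grb10* 23.5 and 8.04, and *Mest* 1699.6 and 655. *H19* was 703 and 380 CPM, 1.85-fold (1.77 to 1.93), and *Igf2* 915 and 689, 1.33-fold (1.28 to 1.38), both below 2-fold.

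Several of these genes were very unevenly spread over the 344 gate cells. *H19* was 703 CPM on average but 68.6% of the cells had no UMI, where 0.122% would have none if its UMIs were spread evenly by depth. The corresponding shares were 52.9% and 0.0981% for *Cdkn1c*, 28.8% and 0.0562% for *Phlda2*, and 57.8% and 21.6% for *Igf2r*. By the gap between these shares, *H19*, *Cdkn1c*, *Igf2r* and *Phlda2* ranked 1, 2, 4 and 10 of 2347 genes. The ranks between were held by genes of cell division such as *Ube2c* (3) and *Top2a* (9). Imprinted genes were not uneven as a group. *Plagl1* ranked 20, but *Sgce*, *Mest*, *Igf2* and *Peg3* ranked 520, 807, 910 and 1883. The median cell with *H19* held 30 UMIs of it, so that most cells with a count of it held many. The other WT cells were uneven too, with no UMI of *H19* in 71.5% (1.47% if spread evenly), of *Cdkn1c* in 73.1% (6.98%) and of *Phlda2* in 72.5% (28.5%).

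**Figure D5:**
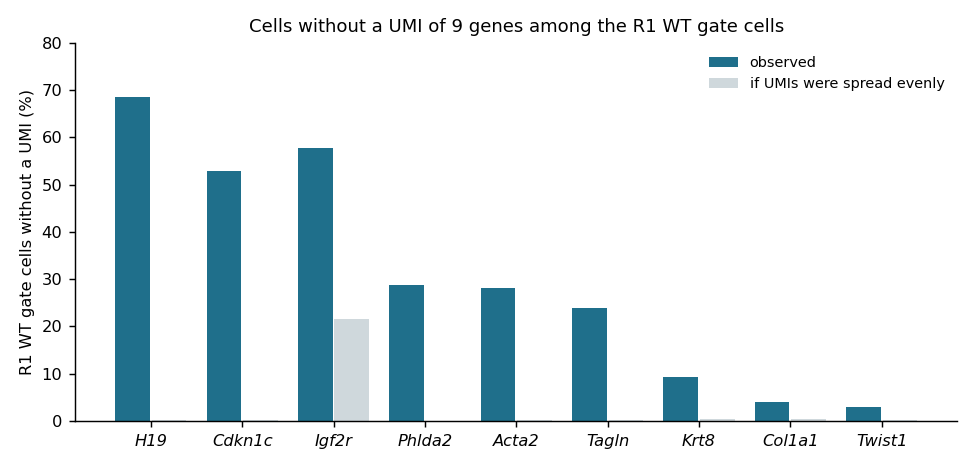
Percentage of the 344 WT gate cells without a UMI of each of 9 genes (observed) beside the percentage for the same UMIs spread evenly by depth. *H19*, *Cdkn1c* and *Igf2r* were missing from more cells than not, *Acta2* and *Tagln* from 28.2% and 23.8%, and *Twist1* from 2.91%.

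*Cdkn1c* and *Phlda2*, neighbors in the same imprinted domain, went together. The 245 gate cells with *Phlda2* had 1011 CPM of *Cdkn1c* and the 99 without it 42.4, a ratio of 23.9. The 162 cells with *Cdkn1c* had 1459 CPM of *Phlda2* and the 182 without it 272. Cells with both genes and no *H19* numbered 105 (30.5%), cells with all 3 genes 45 (13.1%) and cells with none 63 (18.3%).

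*H19* did not follow that pattern. The 108 cells with *H19* had 707 CPM of *Cdkn1c* and the 236 without it 751. *Igf2*, the reciprocally imprinted neighbor of *H19*, was 648 CPM in the cells with *H19* and 1039 in those without, a ratio of 0.624. *Tbx4*, which chose the cells, was 344 and 347 CPM in these groups, and 365 and 299 in cells with and without *Phlda2*.

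The smooth muscle genes formed a further split. The 247 gate cells with *Acta2* had 842 CPM of *Tagln*, 131 of *Myl9* and 45.6 of *Cnn1*, and the 97 cells without it 123, 13.7 and 4.57. *Tbx4* was 353 and 327 CPM in these groups. The 40 gate cells with *Actc1* had 1249 CPM of *Acta2* and the others 491.

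In E14, whose cells the selection was not made on, 239 of 368 d4 EB cells met the criterion, or 64.9% (59.8 to 69.8), as did 42 of 537 d2 EB cells (7.82%, 5.69 to 10.4) and 0 of 227 2i ESC (a limit of 1.32% at 3 cells). The E14 libraries were deeper, with medians of 21658, 24510 and 33971 UMIs per cell in d4 EB, d2 EB and 2i ESC. With E14 cells thinned to 15374 UMIs, a depth of their own, the shares were 61.3% in d4 EB, 4.82% in d2 EB and 0 in 2i ESC. The share in E14 d4 EB was thus above that in R1 WT before and after thinning, and line, chemistry, depth and library cannot be told apart between them.

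The E14 d4 EB gate cells had *Pitx1* at 315 CPM, *Wnt2* at 210.1, *Tbx4* at 121, *Foxf1* at 90.6, *Gal* at 65.5 and *Gata5* at 47.6, and the other E14 d4 EB cells 13.5, 9.93, 2.36, 5.67, 0.946 and 2.6 CPM in the same order. *Wnt2* was found in 95.8% of them, against 40.7% in R1. In d2 EB the 42 gate cells had *Foxf1* at 136 CPM in 97.6% of cells, *Pitx1* at 127 and *Tbx4* at 66.3, but 1 UMI of *Wnt2*, 3.81 CPM of *Gal* and 6.1 of *Gata5*. *Foxf1* was also present in 44.2% of the other d2 EB cells. At d2, therefore, the criterion was met through *Tbx4*, *Pitx1* and *Foxf1*, and *Wnt2* was high at d4.

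In E14 d4 EB, 611 of 7490 genes (8.16%) were at least 2-fold higher in the gate cells and 536 (7.16%) lower. Of 7307 genes compared in both lines, 162 were higher in both, which was 82.2% of the 197 higher in R1 and 27.5% of the 589 higher in E14. Lower in both were 232, or 71.4% of the 325 lower in R1 and 47.9% of the 484 in E14. Across these genes, which are not independent replicates, the log2 ratios had a Spearman correlation of 0.61 and a Pearson correlation of 0.73.

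The mesodermal lists gave larger ratios in E14. Allantois and extraembryonic mesoderm had 15 of 21 genes higher and 1 lower with a median log2 ratio of 2.1, the hindlimb list 12 of 15 higher and 1 lower with a median of 2.94, and the mesenchymal list 11 of 14 higher. *Sfrp1* was 287 and 17.7 CPM, *Twist1* 253 and 16.8, and *Gata6* 221 and 13.7, against ratios in R1 of 10.3, 5.16 and 4.1. The other cells of the 2 lines were not matched in kind. *Sfrp1* was higher in the E14 gate cells than in those of R1 (174 CPM), with near equal levels in the other cells. *Twist1* was lower in the E14 gate cells than in those of R1 and *Gata6* near equal. Their larger ratios in E14 thus lie with lower levels in its other cells. Endothelial genes were lower for 11 of 14 and blood genes for 5 of 5, *Hba-x* at 9.12 CPM in the gate cells and 728 in the others. *Hba-x* was detected in 18.4% of the E14 gate cells and 26.4% of the others.

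The 10 largest ratios in E14 d4 EB were those of 1010001N08Rik, *Hoxc6*, *S1pr3*, *Mab21l2*, *Tbx5*, *Tcf21*, *Shisa2*, *Sox3*, *Zfhx4* and *Pcdh18*. *Tbx5*, the forelimb and heart paralog of *Tbx4*, was 21.4 CPM in the gate cells and 0 UMIs in the other cells, at least 30.2-fold higher. *Tcf21*, a factor of splanchnic mesoderm, was 30.9 and 1.18 CPM.

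For some genes the gate cells, their ratio to the other cells, or both differed between R1 and E14. *Phlda2* was 1290.4 and 767 CPM in E14, 1.68-fold against 8.81-fold in R1. In R1 it was 826 and 93.8 CPM, so its smaller ratio in E14 lies with the other E14 cells. *Cdkn1c* was found in all E14 gate cells, whereas *H19* was absent from 87% of them (22.5% if spread evenly). *Col3a1* was 142 and 7.09 CPM, 20-fold, against 1.08-fold in R1. *Tagln* was 22.7 and 103 CPM, lower in the E14 gate cells and 1.46-fold higher in those of R1, and *Bmp4* was 30.3 and 13.2 CPM, higher in E14 and lower in R1. *Hand1* was 239 and 191 CPM, near equal in E14 as well. These differences between lines were not tested, and the ratios depend on the other cells of each line as well as on the gate cells.

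In d2 EB, 94 of 8081 genes (1.16%) were at least 2-fold higher in the 42 gate cells and 590 (7.3%) lower. The gate cells there held 1312142 UMIs and the others 13337137, so the limit of the shared minimum holds here too. *Hoxa7* was 124 and 18.6 CPM, *Hoxc8* 79.3 and 10.9, *Twist1* 62.5 and 9.52 and *Hoxa10* 58.7 and 9. *Twist1* and *Hoxa10* were thus already higher in the gate cells of d2 EB, and were also higher in those of E14 and R1 d4 EB.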

How the data were processed

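Single cells were profiled with the 10x Chromium 3′ assay in 10 libraries, of which 5 were used here. The deposited values of both tables are UMI counts per gene and cell that the authors did not scale. For the R1 table (32285 genes, 3115 cells), the authors kept cells with at least 2000 detected genes, and the aligner of that table is not given in the sources used here. For the E14 table (27998 genes, 2782 cells), the authors made the counts with Cell Ranger on GRCm38 (mm10) and aggregated the libraries to an equal depth of mapped reads, which lowers the depth of the deeper ones. Its header was broken across lines and was rejoined, and cells were assigned to libraries by barcode suffix, as listed in the study's supplement. The 1650 columns of the other 5 E14 libraries were not used here, and 1 barcode was shared among the E14 libraries used. E14 identifiers were paired with symbols through GENCODE.

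UMIs were summed over the cells of each group and scaled to 1000000 (CPM). Exact 95% intervals were Poisson for CPM, conditional for ratios and Clopper-Pearson for shares. PCR duplicates are removed by UMIs, but the cells of 1 library share its preparation, so the intervals cover counting error only and no test was run. A gene was compared where both groups together held at least 100 UMIs, and was called higher or lower at 2-fold. Where the groups differ in total UMIs, this minimum admits genes of lower CPM in the larger group. Counts of higher and lower genes are then not a balance. A group at 0 was given 3 counts in ratios, which are then bounds.

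Named were the selecting genes, the members of gene lists with the largest and smallest ratios and the best known markers, the 15 largest and 15 smallest ratios against the other WT cells, the 10 largest and 10 smallest against the dCD gate cells (only some of these 20 are printed), the 10 largest in E14 d4 EB, the *Hox* genes, the leading genes of clusters, and the 5 genes most like the number of selecting genes detected. Outside this rule, *Zfp42*, *Dppa5a*, *Cables2*, genes that differed within or between clusters and genes named for their spread over cells were named after their values were seen. A few genes that the rule names are not reported here. The criterion and the gene lists were chosen with earlier results of these data known. Lists of the neural plate, the retinoic acid, Notch and VEGF pathways, forkhead factors, matrix, adhesion and stress response are given by count in the closing section.

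Clusters (10 principal components, 2000 variable genes, resolution 0.3, Seurat 5.3.0, R 4.3.3) were computed on both R1 libraries without the selecting genes. Neighbors (20 components, 20 neighbors) were also found without them. The search was over the WT cells for shares of gate cells, and over both R1 libraries for shares of dCD cells. Doublets were called with Scrublet in scanpy 1.11.5 and kept. Thinning drew UMIs without replacement to the 10th percentile of depth of the shallowest library of a table. Other steps used Python 3.11.15, numpy 2.4.6, scipy 1.17.1, pandas 2.3.3, scikit-learn 1.9.0 and matplotlib 3.10.9, and were tested on simulated data. Alternatives changed the number and choice of selecting genes, depth, doublets, the filter on cells, the fold, the UMI minimum, the scaling, the neighbor search and the cells compared.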

Additional observations from a re-analysis of the deposited data

Results flagged for a closer look

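Of the genes compared in both lines, 9 were past 2-fold in opposite directions between the gate cells and the other cells of d4 EB. Higher in the gate cells of R1 WT and lower in those of E14 were *Sct*, the gene of the gut hormone secretin (log2 ratio 1.56 in R1 and -1.69 in E14), *Prph*, an intermediate filament gene of neurons (1.47 and -1.49), and *Jade3* (1.01 and -1.58). In CPM, *Sct* was 75.8 in the gate cells and 25.6 in the other cells of R1 WT, and 64.8 and 209 in E14. *Prph* was 38.7 and 14 CPM in R1 WT and 9.68 and 27.2 in E14.

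Lower in the gate cells of R1 WT and higher in those of E14 were *Crabp1*, which binds retinoic acid (-1.66 and 3), *Nupr1* (-1.48 and 1.3), *Lmo1* (-1.44 and 3.18), *Lhfp* (-1.33 and 2.71), *Adam23* (-1.23 and 2.45) and *Rhox5* (-1.03 and 1.59). *Crabp1* was 33.4 and 105 CPM in R1 WT and 214 and 26.7 in E14. *Lmo1* was 7.06 and 19.2 CPM in R1 WT and 34.2 and 3.78 in E14, and *Rhox5*, which is X-linked and expressed in germ cells and trophoblast, 8.56 and 17.5, and 179 and 59.6. In each line this is 1 library, the difference between the lines was not tested, and line, chemistry and library cannot be told apart. The ratios also depend on the other cells, which were not matched in kind between the lines.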

How the results depend on the processing

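No paired analysis was possible because every condition is 1 library and no replicates exist. With at least 2 of the 6 genes required, the criterion was met by 34.5% of WT, 1.35% of dCD and 70.1% of E14 d4 EB cells, 84.6% of the neighbors of gate cells were gate cells and 253 genes were lower than in the dCD gate cells. With at least 4, the shares were 13.3%, 0 and 55.2%, and 51.7% of neighbors were gate cells. Without *Tbx4* the shares were 14% in WT, 0 in dCD and 58.2% in E14, with 51.4% of neighbors, and without *Pitx1* 13.3%, 0 and 56.8%, with 51.7%. In these 3 settings no dCD cell was left to compare. Without *Wnt2* the E14 share was 56.5%. Without *Gata5* the WT share was 21%, 70.8% of neighbors were gate cells and 170 genes were higher than in the dCD gate cells. Without *Foxf1* the WT share was 18.1%, with 65.1% of neighbors, and after thinning 16.8%, with 58.4%. With at least 5 genes, added after the data were seen, the E14 share was 33.7% and 256 genes were higher there.

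Counts of genes followed the fold and the UMI minimum. At 1.5-fold, 803 were higher and 1406 lower in WT gate cells than in other WT cells, 752 and 1578 against dCD gate cells and 1240 and 1111 in E14. At 3-fold the counts were 105 and 459, 101 and 312, and 303 and 272. With at least 30 UMIs, 497 were higher and 1428 lower than in other WT cells, 1849 lower than in dCD gate cells, and 1086 higher and 1174 lower in E14. Centring gave 885 higher and 366 lower than in dCD gate cells. Of the comparisons added after the data were seen, the main cluster alone gave 13 and 8 genes, dCD cells of the larger cluster 218 and 234, and all dCD cells 757 and 1596. For the 189 named genes past 2-fold, log2 ratios were recomputed only when the selecting genes or their number changed, or cells were thinned or left out. The cells left out were doublets or the gate cells with at least 10 *Zfp42* UMIs. Of the resulting 2079 log2 ratios, 2079 kept their sign and 2016 stayed past 2-fold. These genes were taken because they were past 2-fold, and were measured again in largely the same cells. They include the selecting genes, whose ratios follow from the selection. Kept signs are therefore no independent check. The comparison with 26936 UMIs of 2 dCD cells is the one limited most by depth.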

Other observations

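Further lists are given by count, to be read beside the 2.89% of all genes compared that were at least 2-fold higher in the WT gate cells than in the other WT cells and the 7.75% that were lower. Among them, 0 of 9 retinoic acid pathway genes were at least 2-fold higher and 3 lower, *Crabp1* and *Dhrs3* among them, 1 of 9 Notch genes higher and 3 lower, 3 of 18 VEGF and PDGF genes higher (*Vegfc*, *Pdgfra*, *Angpt1*) and 3 lower (*Flt1*, *Pdgfb*, *Cxcr4*), and 0 of 8 forkhead genes higher and 3 lower. Of 33 matrix genes other than collagens 3 were higher and 5 lower, of 9 adhesion genes of allantois and chorion 3 were higher (*Alcam*, *Cdh2*, *Cdh11*) and 2 lower, and of 19 glycolysis genes 0 were higher and 4 lower. Of 4 neural genes 2 were higher, *Sox3* and *Nes*, and *Otx2* was lower. Of 14 genes of dissociation stress 0 were higher and 2 lower, of 4 T-box genes 2 were higher and of 8 PITX and limb homeobox genes 2 were higher and 1 lower. The lower paraxial and intermediate mesoderm genes were *Tcf15* and *Foxc1*, of 2 genes of neuropeptide processing *Cpe* was lower, and of the 2-cell embryo list 0 genes had enough UMIs.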
